A study of Mus musculus with 60 samples.

Results

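The 6 homeobox genes Meis1, Meis2, Irx1, Irx2, Irx3 and Irx5 were followed across 6 mouse embryonal carcinoma strains. They were taken by exact gene symbol and are 6 of 18193 genes that the arrays name by a single symbol. They had been chosen by their signals in these same arrays, where Meis2, Irx3 and Irx5 differed between strains, so their differences are given as descriptions without a p-value. The 6 genes have 11 probe sets, 6 on the MOE430A array and 5 on the MOE430B array. Of these, 8 probe sets of 5 genes were bright enough to be tested, and Irx2 was not.

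Meis and Irx proteins belong to the TALE class of homeobox transcription factors, which carry an extended loop in the DNA-binding homeodomain. Meis proteins pair with Pbx proteins, and through them with Hox proteins, and their genes are known as targets of retinoic acid in differentiating P19 cells. Irx genes lie in clusters in mammals and pattern the neural plate, the heart and other organs. Irx3 and Irx5 are neighbours in one cluster, and Irx1 and Irx2 in another.

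The cells were undifferentiated cultures of CL6G26, CL6G36, CL6G45 and CL6G52, which are sublines of P19CL6, of P19CL6 itself, a subline of P19 known for forming cardiac muscle, and of the parental line P19. All 6 strains come from a male C3H mouse embryo and were grown in the same serum medium with no differentiating agent named. Each strain has 5 biological replicates, each read on both array types, which gives 60 arrays. What the sublines were derived for, and whether each is 1 clone, the sources used here do not give. Since the labels do not say whether replicates were separate cultures, p-values measure only how these samples vary, which may be partly technical.

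Some arrays stood apart from their strain. P19 replicates 4 and 5 and CL6G52 replicate 1 went against their labels: over all tested probe sets they were most alike to P19CL6 and to CL6G45. P19CL6 replicates 1 and 2 were nearest to CL6G26 on MOE430A, and all 5 CL6G26 arrays to P19CL6 on MOE430B. In all, 25 of 30 arrays on MOE430A and 21 of 30 on MOE430B were most alike to their own strain. The deposited signals of an array had a median between 30.2 and 53.35 (MOE430A) or between 10.6 and 16.5 (MOE430B), and precision is limited by the number of arrays. Gapdh signal at the 3' end over that at the 5' end, which tracks RNA integrity, gave ratios on MOE430A of 0.829 to 0.883 in CL6G26, 0.820 to 0.927 in CL6G36, 0.795 to 0.875 in CL6G45, 0.781 to 0.856 in CL6G52, 0.835 to 0.887 in P19CL6 and 0.908 to 0.954 in P19. As a check of the cell type, 8 of 9 pluripotency markers lay above the floor on all 30 MOE430A arrays. The summed linear signals of the 9 ran from 8696 to 10977 over all arrays. They were 10504 to 10977 in CL6G45, above the 9433 to 10016 of P19CL6, while those of each other strain overlapped P19CL6. Nanog, a core pluripotency factor, was the 1 marker of the 9 called, lower in CL6G36 by a log2 difference of -1.10 (limma, adjusted p = 3.5e-08, range over alternatives 4.31e-09 to 0.000399) and in CL6G45. Its difference in CL6G45 was -1.02 (limma, adjusted p = 2.97e-07, range 4.53e-08 to 0.00426). Nanog stayed under 2-fold in CL6G36 without its replicate 5, at -0.97, and in CL6G45 with the deposited scaling, at -0.93, or without P19CL6 replicate 3 or CL6G45 replicate 3 (both -0.99) or CL6G45 replicate 5.

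Signals are given on the log2 scale after quantile normalization within an array type. The floor is the level under which a probe set cannot be told from the dim part of its array, at 4.61 for MOE430A and 4.15 for MOE430B. A gene was called where limma's adjusted p was under 0.05 and the change at least 2-fold. In whole cultures, fewer cells with a transcript and less of it per cell cannot be told apart.

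The promoters of Meis2 and Irx3 are shown because both genes read lower on MOE430A in the same 3 sublines. They are RefSeq sequences on GRCm38.p6, each 250 bases before and 50 bases from the annotated start of the gene, with those last 50 in capitals. The stretch for Meis2 is chr2:116064570-116064869 on the minus strand and holds 51% G and C. The stretch for Irx3 is chr8:91801605-91801904 on the minus strand and holds 56%.
Meis2: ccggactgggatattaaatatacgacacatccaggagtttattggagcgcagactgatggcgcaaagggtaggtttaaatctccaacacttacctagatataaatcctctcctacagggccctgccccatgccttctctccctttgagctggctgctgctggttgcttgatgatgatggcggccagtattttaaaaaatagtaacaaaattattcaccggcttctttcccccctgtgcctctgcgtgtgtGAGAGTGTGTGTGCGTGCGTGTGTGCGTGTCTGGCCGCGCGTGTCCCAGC
Irx3: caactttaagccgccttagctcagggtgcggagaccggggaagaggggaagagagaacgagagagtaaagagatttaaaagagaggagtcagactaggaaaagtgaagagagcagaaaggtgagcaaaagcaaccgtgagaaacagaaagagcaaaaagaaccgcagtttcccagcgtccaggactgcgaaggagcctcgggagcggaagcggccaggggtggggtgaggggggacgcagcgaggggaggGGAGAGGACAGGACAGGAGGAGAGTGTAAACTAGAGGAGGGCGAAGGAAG
Of the 6 genes, Meis1, Meis2, Irx2 and Irx3 had an entry in the promoter table. Searched on both strands and with overlaps allowed, the core AGGTCA of retinoid receptor sites, the Meis core TGACAG, the Irx palindrome ACANNTGT and the Pbx site TGATTGAT had 0 matches in these 4 promoters. They occur in 16.3%, 19.2%, 7.38% and 0.746% of 32851 mouse promoters of 300 bases. That says only that these letters are not in these windows.

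Meis2, a Pbx partner that takes part in forebrain, limb and neural crest development, was low on MOE430A in CL6G36, CL6G45 and CL6G52. Its MOE430A probe set read 1.18, 1.02, 0.96, 4.01 and 4.13 in CL6G36. In CL6G45 it read 2.43, 2.73, 1.74, 2.46 and 3.02, and in CL6G52 it read 1.32, 4.17, 3.67, 1.91 and 3.59. All 15 of these arrays lay under the floor, and within CL6G36 and CL6G52 they split into dim and less dim arrays. In CL6G26 Meis2 read 5.17, 4.92, 4.63, 4.76 and 5.27. The reference strain P19CL6 read 4.75, 5.14, 6.03, 5.89 and 6.21, and the parental P19 read 6.42, 5.90, 6.11, 6.11 and 5.93. These 15 arrays all lay above the floor. Within P19CL6, the arrays with the lowest signals were replicates 1 and 2, the arrays nearest to CL6G26.

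In mean signal Meis2 stood at 4.95 ± 0.27 in CL6G26, 2.26 ± 1.65 in CL6G36, 2.48 ± 0.48 in CL6G45 and 2.93 ± 1.24 in CL6G52, against 5.61 ± 0.63 in P19CL6 and 6.09 ± 0.21 in P19 (SD, n = 5 each). The arrays of CL6G36, CL6G45 and CL6G52 did not overlap those of P19CL6, CL6G26 or P19. On the MOE430A probe set all arrays of these 3 sublines lay under the floor. By that probe set Meis2 read at least 1.99-fold lower in each than the P19CL6 mean. The bound holds for it alone, since the brightest MOE430B probe set read 1.5-fold lower in CL6G52, with overlap. On MOE430A the fitted differences were -3.35, -3.13 and -2.67 in CL6G36, CL6G45 and CL6G52, each with an SE of 0.54. They depend on signals under the floor. With signals raised to the floor each was -0.99, and Meis2 was then not called in any of the 3. The difference was -0.66 ± 0.54 in CL6G26 against P19CL6 and -0.49 ± 0.54 in P19CL6 against P19 (SE), and these groups overlapped.

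The order of Meis2 means was P19, P19CL6, CL6G26, then CL6G52, CL6G45 and CL6G36, whose own order under the floor has no meaning. Of the neighbours in that order, CL6G26 and CL6G52 were the 1 pair whose arrays did not overlap. Without P19CL6 replicates 1 and 2 the differences against P19CL6 were -1.10 in CL6G26, -3.79 in CL6G36, -3.57 in CL6G45 and -3.11 in CL6G52. The difference of P19CL6 from P19 was then -0.05, and without P19 replicates 4 and 5 it was -0.54. Without CL6G52 replicate 1 the difference of CL6G52 from P19CL6 was -2.27.

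**Figure D1:**
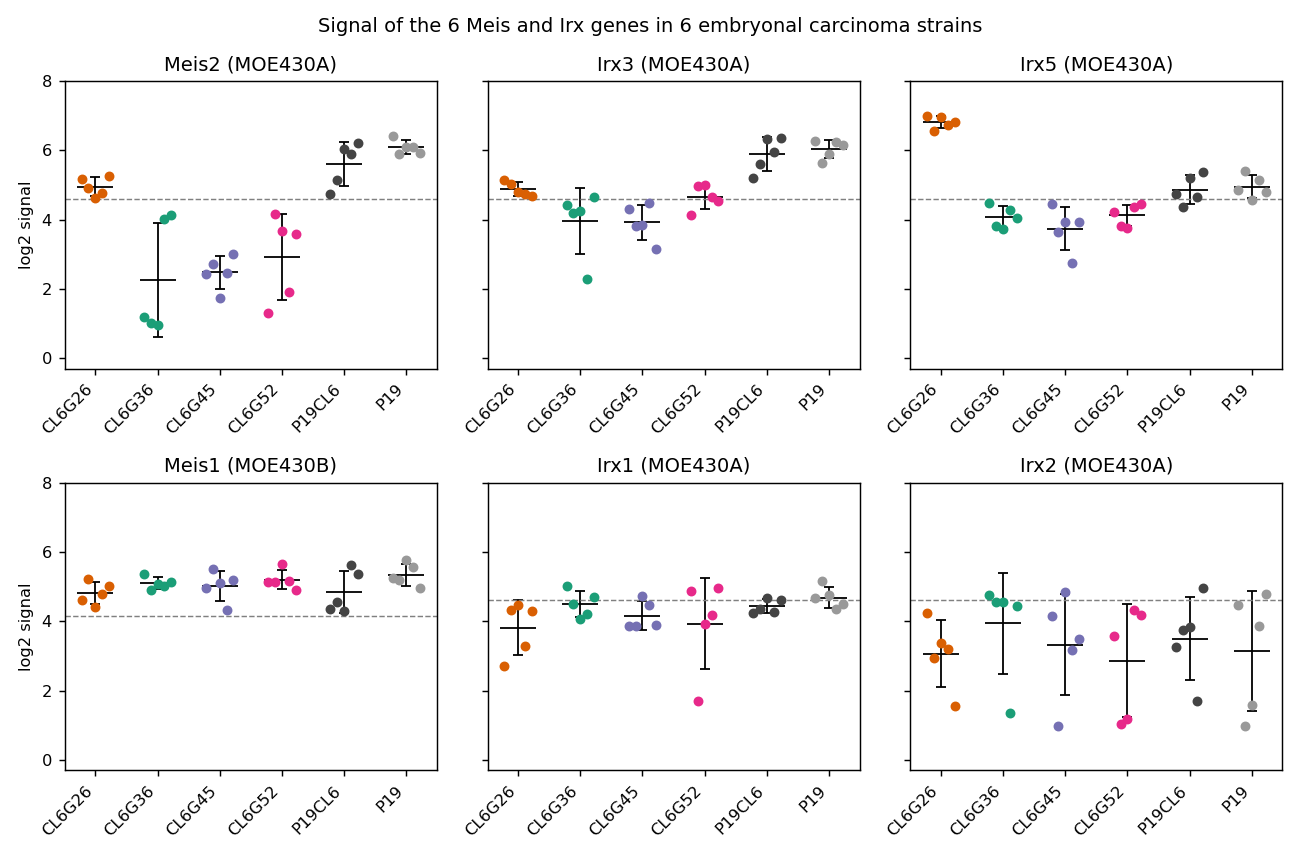
Log2 signal of the 6 genes in each strain, with 1 point per array, a bar at the mean, whiskers of 1 SD (n = 5) and a dashed line at the floor of the array type named in each panel. Meis2 lies under the floor on all arrays of CL6G36, CL6G45 and CL6G52, Irx5 is high in CL6G26, and the strains overlap for Meis1, Irx1 and Irx2.

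MOE430B carries 3 other probe sets for Meis2. The brightest of them lay above the floor on 27 of 30 arrays. It read 4.57, 4.76, 4.00, 4.27 and 4.41 in CL6G36 and 4.91, 4.69, 4.72, 3.76 and 3.40 in CL6G45, against 5.22, 5.24, 6.05, 5.80 and 6.07 in P19CL6. Neither subline overlapped P19CL6. The differences were -1.27 in CL6G36 and -1.38 in CL6G45, with an SE of 0.25. In CL6G52 it read 5.63, 5.00, 4.83, 5.01 and 5.00, and in CL6G26 5.34, 5.42, 5.60, 5.24 and 5.00. Both sublines overlapped P19CL6, with differences of -0.58 and -0.36. So CL6G52, which stood clear of P19CL6 on MOE430A, did not do so on this probe set, and its replicate 1 had the lowest MOE430A signal of that strain and the highest MOE430B signal. In P19 it read 6.11, 5.42, 5.81, 5.77 and 5.95. Over the 30 samples the MOE430A and MOE430B signals of Meis2 had a Pearson r of 0.68, where replicate number and strain join the arrays.

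The dimmer x_at probe set of Meis2, a kind that may read similar transcripts too, lay above the floor on 7 of 30 arrays. It differed from P19CL6 by 0.15 in CL6G26, -2.17 in CL6G36, -1.55 in CL6G45 and -1.56 in CL6G52, with an SE of 0.92 and overlap in each. The last probe set passed the floor on 1 of 30 arrays and was not tested.

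Irx3, which in the neural tube marks progenitor domains and in the heart takes part in the conduction system, was also lower in these sublines. It read 4.42, 4.20, 4.24, 2.30 and 4.65 in CL6G36 and 4.30, 3.83, 3.85, 4.47 and 3.16 in CL6G45. In CL6G52 it read 4.14, 4.97, 5.00, 4.65 and 4.55. These arrays lay at or under the floor, or less than 1 log2 unit above it. In CL6G26 it read 5.13, 5.04, 4.79, 4.74 and 4.69, all above the floor. In P19CL6 it read 5.21, 5.62, 6.32, 5.96 and 6.36, and in P19 6.28, 5.63, 5.90, 6.24 and 6.14. Every subline array thus lay under every P19CL6 array, by a narrow gap for CL6G26, whose highest array was 5.13 against a lowest P19CL6 array of 5.21.

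Mean Irx3 signals were 4.88 ± 0.19 in CL6G26, 3.96 ± 0.94 in CL6G36, 3.92 ± 0.51 in CL6G45 and 4.66 ± 0.35 in CL6G52, against 5.89 ± 0.49 in P19CL6 and 6.04 ± 0.27 in P19 (SD, n = 5 each). The difference was -1.93 ± 0.31 in CL6G36, -1.97 ± 0.31 in CL6G45, -1.23 ± 0.31 in CL6G52 and -1.02 ± 0.31 in CL6G26 (SE), and the last did not meet the adjusted threshold. In CL6G45, where no array lay above the floor, Irx3 was at least 2.43-fold lower. With signals raised to the floor the differences in CL6G36, CL6G45 and CL6G52 were -1.27, -1.28 and -1.12. P19CL6 differed from P19 by -0.14 ± 0.31 (SE), with overlap.

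Irx3 levels ran in the order P19, P19CL6, CL6G26, CL6G52, CL6G36 and CL6G45, and P19CL6 and CL6G26 were the 1 pair of neighbours in that order with no overlap. Without P19CL6 replicates 1 and 2 the differences against P19CL6 were -1.34 in CL6G26, -2.25 in CL6G36, -2.29 in CL6G45 and -1.55 in CL6G52, and P19CL6 differed from P19 by 0.18. Without CL6G52 replicate 1 that of CL6G52 was -1.10. Irx3 in CL6G52 fell short of a call with the deposited scaling, at -1.10, and without P19CL6 replicate 3 (-1.13) or 5 (-1.12). In CL6G26 Irx3 was called under 3 of 19 alternatives.

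Irx5, the neighbour of Irx3, takes part in retina and heart development and acts beside it in the heart. It was bright in CL6G26, where it read 7.00, 6.56, 6.95, 6.73 and 6.81. In P19CL6 it read 4.74, 4.36, 5.19, 4.66 and 5.38, and in P19 4.85, 5.41, 4.56, 5.13 and 4.79. The CL6G26 arrays lay more than 1 log2 unit above every other array of the study. In the deposited linear signals these were 85.5 to 175 in CL6G26, against 21.7 to 36.8 in P19CL6. In the other sublines Irx5 read 4.49, 3.81, 3.74, 4.29 and 4.05 in CL6G36, 4.44, 3.63, 3.92, 2.76 and 3.92 in CL6G45, and 4.21, 3.82, 3.77, 4.36 and 4.44 in CL6G52. None of these 15 arrays lay above the floor.

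Mean Irx5 signals were 6.81 ± 0.18 in CL6G26, 4.08 ± 0.32 in CL6G36, 3.73 ± 0.62 in CL6G45 and 4.12 ± 0.31 in CL6G52, against 4.87 ± 0.41 in P19CL6 and 4.95 ± 0.33 in P19 (SD, n = 5 each). The difference in CL6G26 was 1.94 ± 0.25 (SE), or 3.85-fold higher, and Irx5 was called there under all 18 alternatives run. In CL6G36, CL6G45 and CL6G52 the fitted differences were -0.79, -1.13 and -0.75 with an SE of 0.25, and the arrays overlapped those of P19CL6. The P19CL6 mean lay 1.19-fold above the floor, but P19CL6 replicate 2, at 4.36, lay under it, so no firm bound follows. With signals raised to the floor the difference was -0.30. The call in CL6G45 was lost under 3 of 18 alternatives, among them without CL6G45 replicate 4, where the difference was -0.89. P19CL6 differed from P19 by -0.08 ± 0.25 (SE), with overlap. Without P19CL6 replicates 1 and 2 the differences were 1.73 in CL6G26, -1.0 in CL6G36, -1.34 in CL6G45 and -0.96 in CL6G52, and 0.13 in P19CL6 against P19. The last was -0.07 without P19 replicates 4 and 5, and CL6G52 stood at -0.77 without its replicate 1. The order of means was CL6G26, P19, P19CL6, CL6G52, CL6G36 and CL6G45. CL6G26 and P19 were the 1 pair of neighbours in it that did not overlap. Among CL6G52, CL6G36 and CL6G45 the order has no meaning, since all their arrays lay under the floor.

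**Figure D2:**
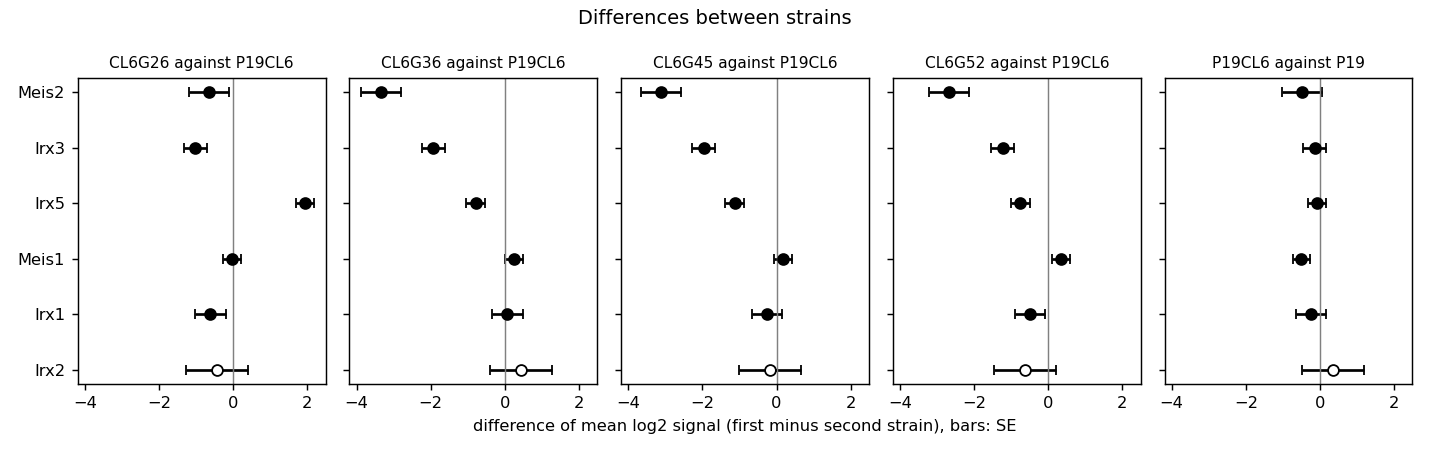
Difference of mean log2 signal, the first named strain minus the second, for the 6 genes in the 5 comparisons, with whiskers of 1 SE. An open circle marks Irx2, which was not tested. Meis2 and Irx3 lie left of 0 in all sublines, and Irx5 lies at 1.94 in CL6G26 and left of 0 in CL6G36, CL6G45 and CL6G52.

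Irx3 and Irx5 differed in opposite directions in CL6G26, where Irx3 was 1.02 log2 units lower and Irx5 was 1.94 higher than in P19CL6. The Irx3 difference did not meet the adjusted threshold, and Irx3 was called there under 3 of 19 alternatives. The 4 sublines share the 5 P19CL6 arrays as their reference. Over the 30 arrays, r was 0.72 between Meis2 and Irx3, 0.54 between Meis2 and Irx5, and 0.32 between Irx3 and Irx5. These correlations describe arrays that fall into strains and share normalization, and carry no test. They rest in part on signals under the floor.

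**Figure D3:**
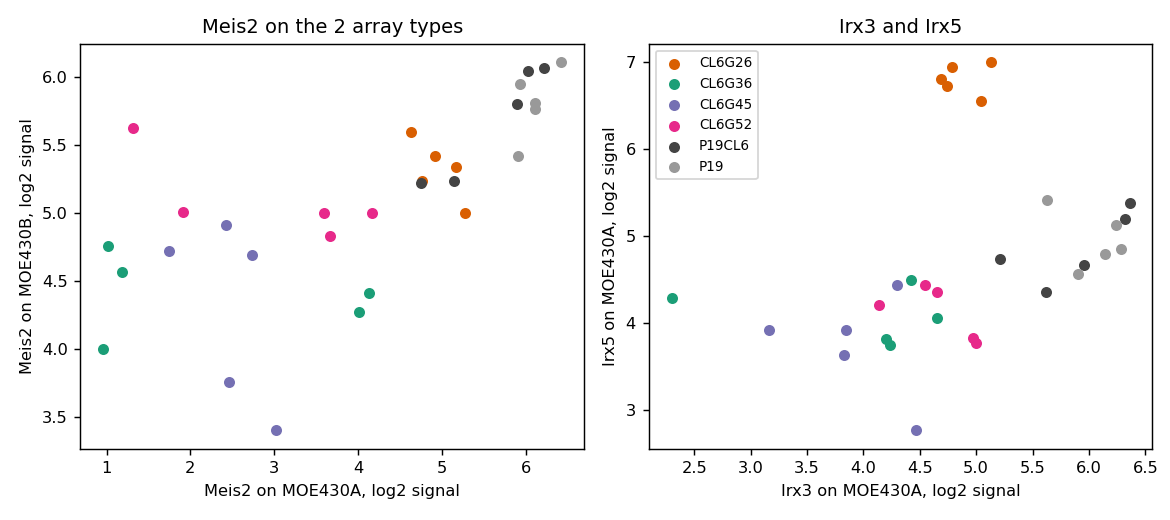
Left, log2 signal of Meis2 on MOE430A (x axis) against its brightest MOE430B probe set (y axis), and right, log2 signal of Irx3 (x axis) against Irx5 (y axis), with 1 point per replicate coloured by strain. On the left CL6G52 replicate 1 stands at 1.32 and 5.63, and on the right the 5 CL6G26 points lie above all others.

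Meis1, a Pbx and Hox partner of blood and neural progenitors, was not above the floor on any of 30 MOE430A arrays. Its brighter MOE430B probe set lay above the floor on all 30. Its signals ran from 4.41 to 5.22 in CL6G26, 4.91 to 5.37 in CL6G36, 4.33 to 5.51 in CL6G45 and 4.91 to 5.65 in CL6G52, against 4.31 to 5.64 in P19CL6 and 4.97 to 5.76 in P19. All strains overlapped one another. The means were 4.82 ± 0.32 in CL6G26, 5.10 ± 0.17 in CL6G36, 5.02 ± 0.44 in CL6G45, 5.20 ± 0.27 in CL6G52, 4.85 ± 0.61 in P19CL6 and 5.35 ± 0.31 in P19 (SD, n = 5 each). The highest and lowest were 0.53 apart, and the SE of a difference was 0.24. The other MOE430B probe set had means of 4.93 in CL6G26, 5.10 in CL6G36, 4.71 in CL6G45, 4.92 in CL6G52, 5.05 in P19CL6 and 5.28 in P19. The r between the 2 Meis1 sets over 30 arrays was 0.38, so they ranked the strains differently within this narrow range.

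Irx1, which acts in lung, heart and neural patterning, passed the floor on 10 of 30 arrays. Its signals ran from 2.71 to 4.48 in CL6G26, 4.08 to 5.01 in CL6G36, 3.86 to 4.73 in CL6G45 and 1.71 to 4.95 in CL6G52, against 4.24 to 4.66 in P19CL6 and 4.36 to 5.15 in P19. Its means were 3.82 ± 0.79 in CL6G26, 4.50 ± 0.37 in CL6G36, 4.17 ± 0.41 in CL6G45, 3.93 ± 1.32 in CL6G52, 4.43 ± 0.20 in P19CL6 and 4.68 ± 0.30 in P19 (SD, n = 5 each). Against P19CL6 the differences ran from -0.61 in CL6G26 to 0.07 in CL6G36. The SE was 0.41, the groups overlapped in each of the 5 comparisons, and Irx1 was called in none. Irx2, the neighbour of Irx1, passed the floor on 4 of 30 arrays and was not tested. Its means ran from 2.87 in CL6G52 to 3.94 in CL6G36, with SDs of 0.97 to 1.74, so that its level could not be read in any strain.

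Of the 5 tested genes, Irx5 met the call rule as higher in CL6G26, where 0.0531% of 13181 genes were called higher. Meis2 and Irx3 met it as lower in CL6G36, where 0.933% were called lower. Meis2, Irx3 and Irx5 met it as lower in CL6G45, where 0.918% were, and Meis2 and Irx3 in CL6G52, where 0.395% were. None of the 5 was called between P19CL6 and P19, where 0.652% were called. Counted by arrays that do not overlap, Meis2 and Irx3 were lower in CL6G36, CL6G45 and CL6G52, where 5.85%, 6.75% and 2.54% of genes were. In CL6G26 Irx5 was higher and Irx3 lower without overlap, against 1.67% and 2.48% of genes. Since these genes were chosen for such differences, nothing is read from the counts.

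The genes most alike to each member were taken by Pearson r over the 30 arrays of its type, and carry no test. For Meis2 they were Rbbp7, a histone-binding chromatin protein read by an x_at probe set, with r = 0.87, Ndufaf4, an assembly factor of respiratory complex I, with r = 0.86, and Sall3, a zinc finger factor, with r = 0.86. Sall3 averaged 6.31 in CL6G26, 3.46 in CL6G36, 1.83 in CL6G45 and 3.01 in CL6G52, against 7.37 in P19CL6 and 7.33 in P19. Its means in CL6G36, CL6G45 and CL6G52 were under the floor of 4.61. For Irx3 they were Prickle1, of the planar cell polarity pathway, with r = 0.88, Cdc42ep5, a Cdc42 effector, with r = 0.87, and Gclc, which makes the precursor of glutathione, with r = 0.87. Prickle1 averaged 7.51 in CL6G26, 6.93 in CL6G36, 7.00 in CL6G45 and 7.58 in CL6G52, against 8.27 in P19CL6 and 8.47 in P19. For Irx5 they were Vangl1, also of planar cell polarity, with r = 0.90, Mest, an imprinted gene, with r = 0.87, and Mark1, a microtubule-linked kinase, with r = 0.81. Vangl1 averaged 8.28 in CL6G26, 7.04 in CL6G36, 7.09 in CL6G45 and 7.15 in CL6G52, against 7.68 in P19CL6 and 7.61 in P19. Like Irx5, it was highest in CL6G26. All Meis2 and Irx5 arrays of CL6G36, CL6G45 and CL6G52 lay under the floor. The r values of Meis2 and Irx5 thus rest in part on such signals.

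Meis1 had weaker likenesses, with r = 0.72 for Zfp516, a zinc finger gene, and 0.63 for Ccdc162 and Plcb4. For Irx1, Kctd14 had r = 0.75 but a Spearman rho of 0.19, and Snai1, a repressor of epithelial genes, had r = 0.70. Ank1, a membrane skeleton ankyrin, followed with r = 0.69 and a rho of 0.47. Without P19 replicates 4 and 5 and CL6G52 replicate 1, the r values of the 3 genes nearest to Meis2 were 0.86, 0.84 and 0.83 over 27 arrays. Those nearest to Irx3 were each at 0.86, and those nearest to Irx5 at 0.91, 0.88 and 0.81.

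The partners of these proteins were compared too, in a list of other TALE genes and Hox genes. Of 43 on the arrays 20 were tested, and none was called in any of the 5 comparisons by limma. At an unadjusted p under 0.05 there were 2 in P19CL6 against P19, 2 in CL6G26, 4 in CL6G36, 4 in CL6G45 and 3 in CL6G52. By adjusted p alone, with no limit of size, 3 rose in CL6G36, 3 in CL6G45 and 1 in CL6G52, where 13.5%, 13.3% and 3.18% of all genes passed. None passed in CL6G26 or between P19CL6 and P19, where 1.24% and 4.46% of all genes did. With 20 genes tested, these counts lie near the shares of all genes, and nothing is read from them. The median difference over the 20 was -0.02 in CL6G36 and 0.05 in CL6G45, beside medians of 0.00 over all genes.

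Pbx2 and Pbx3 encode the Pbx partners of Meis proteins. Pbx3 averaged 7.87 ± 0.17 in CL6G36, 7.85 ± 0.04 in CL6G45 and 7.88 ± 0.15 in CL6G52, against 7.57 ± 0.13 in P19CL6 (SD, n = 5 each). It rose by 0.30 in CL6G36 (limma, adjusted p = 0.0209), 0.28 in CL6G45 (0.0342) and 0.31 in CL6G52 (0.0494). It passed under 15 of 20 alternatives in CL6G36, 10 of 20 in CL6G45 and 6 of 19 in CL6G52. In P19 Pbx3 averaged 7.71 ± 0.19. Pbx2 rose in CL6G45 by 0.41, to 8.39 ± 0.04, against 7.97 ± 0.17 in P19CL6 (limma, adjusted p = 0.000695). Tgif2, a TALE repressor of TGF-beta signalling, rose in CL6G36 by 0.32 (limma, adjusted p = 0.00463, range over alternatives 0.000346 to 0.382). In CL6G45 Tgif2 rose by 0.25 (limma, adjusted p = 0.0242) and passed under 13 of 20 alternatives. Pknox2, a relative of the Meis genes, rose in CL6G36 by 0.38 (limma, adjusted p = 0.0486) and was under the threshold in 8 of 20 alternatives. With the deposited scaling, none of these genes passed, and Pbx2 also missed with the mean of its probe sets.

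**Figure D4:**
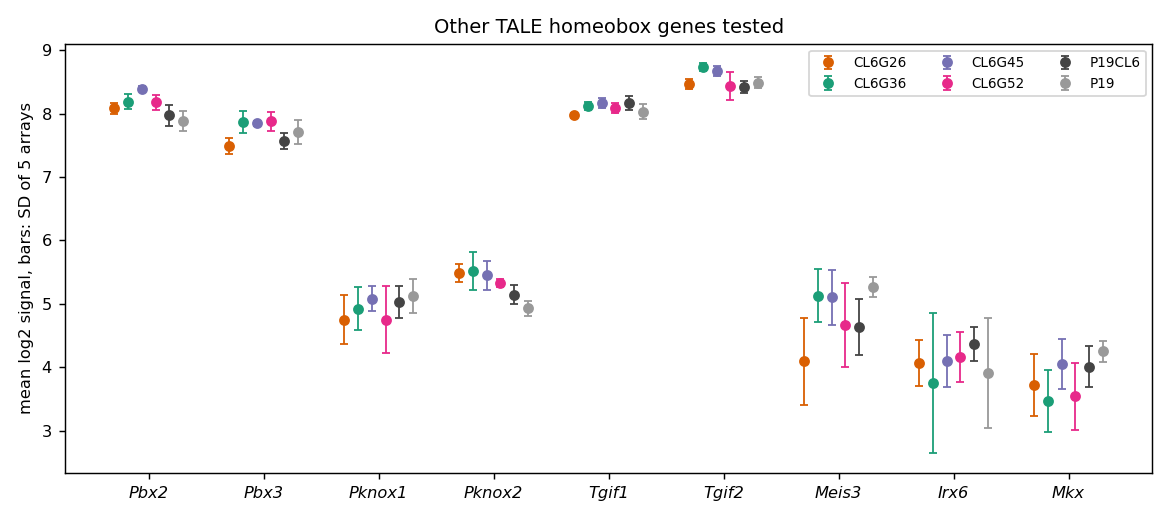
Mean log2 signal of the 9 other TALE genes that were tested, by strain, with whiskers of 1 SD (n = 5). Pbx3 lies near 7.87 in CL6G36, CL6G45 and CL6G52, against 7.57 in P19CL6, and probe sets of different genes are not to be compared in level.

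Of the Hox genes, 11 of 32 on the arrays were tested and none passed in any comparison. Hoxb2, a hindbrain Hox gene, was called higher in P19CL6 than in P19 once P19 replicates 4 and 5 were left out, by 1.98 (limma, adjusted p = 0.0299). Over all 5 P19 arrays Hoxb2 ran from 2.14 to 6.05, at a mean of 4.17 ± 1.71 (SD). The size thus rests in part on signals under the MOE430A floor of 4.61. Irx4, the ventricular member of the Irx1 and Irx2 cluster, and Pbx4 lay above the floor on 0 of 30 arrays. Irx6, the next gene after Irx5, was above it on 5 arrays and was called nowhere.

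Retinoic acid genes were examined because Meis genes respond to retinoic acid. Of 12 tested on a list of 18 on the arrays, 1 was called lower and 0 higher in CL6G36, CL6G52 and P19CL6 against P19, 2 lower in CL6G45, and 1 higher in CL6G26. Over all genes and both directions, 0.258% were called in CL6G26, 1.46% in CL6G36, 1.38% in CL6G45 and 0.501% in CL6G52. Cyp26a1, the enzyme that degrades retinoic acid, averaged 4.18 ± 0.64 in CL6G36, 4.86 ± 0.75 in CL6G45 and 3.63 ± 1.23 in CL6G52, against 6.11 ± 0.23 in P19CL6 (SD, n = 5 each). It fell by 1.93 (limma, adjusted p = 0.000476), 1.26 (0.0208) and 2.48 (8.38e-05) on the log2 scale, with no overlap. Its means in CL6G36 and CL6G52 were under the floor. With all signals set to at least the floor, the differences were -1.48 in CL6G36, -1.06 in CL6G45 and -1.40 in CL6G52. In CL6G45 the call was lost with the deposited scaling (limma, adjusted p = 0.109), without CL6G45 replicate 2 (0.0853) and without P19CL6 replicate 5 (0.0546). Crabp2, a cellular carrier of retinoic acid, fell in CL6G45 by 1.21 (limma, adjusted p = 0.00187), to 5.66 ± 0.44, against 6.87 ± 0.23 in P19CL6. In CL6G36 Crabp2 went the other way, to 7.74 ± 0.10, higher by 0.87 (limma, adjusted p = 0.0222). That change was under 2-fold and not called, and its adjusted p was under the threshold in 16 of 20 alternatives. Dhrs3, which reduces retinaldehyde, fell in P19CL6 by 1.14 against P19 (limma, adjusted p = 0.0134), a call lost without P19 replicate 1, 2 or 3 (0.0707, 0.0719 and 0.0709), and without P19CL6 replicates 1 and 2 (0.0587) or replicate 4, where its difference was -0.89. That call was also lost with the deposited scaling (limma, adjusted p = 0.132), in a fit on these strains alone (0.194) and with signals raised to the floor, at -0.83, while without P19 replicates 4 and 5 the difference was -1.57 (3.05e-05). Dhrs3 rose in CL6G26 by 1.01 (limma, adjusted p = 0.0416), and this call was lost under 10 of 20 alternatives, among them with signals raised to the floor, at 0.66, and without CL6G26 replicate 1, 3, 4 or 5 (0.109, 0.0876, 0.0720 and 0.111) or P19CL6 replicate 4 or 5 (0.167 and 0.107).

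Among 8 tested neural plate genes, Zic1, a zinc finger factor of dorsal neural tissue, was the 1 called, higher in P19CL6 by 1.32 against P19 (limma, adjusted p = 0.0122). It averaged 8.53 ± 0.11 in P19CL6 and 7.21 ± 1.19 in P19 (SD, n = 5 each), and the call was lost without P19 replicate 1, 2 or 3 (limma, adjusted p = 0.0668, 0.0639 and 0.0687) or P19CL6 replicates 1 and 2 (0.0661), and in a fit on these strains alone (0.195). Without P19 replicates 4 and 5 the difference was 2.19 (limma, adjusted p = 1.06e-15). Of 7 tested cardiac transcription factors, limma called none in any comparison, and by adjusted p alone 1 rose and 1 fell in CL6G36 and 1 fell in CL6G45. Among 15 tested genes that lie near the Meis and Irx genes, Mmp2, a matrix metalloproteinase beyond Irx6 on chromosome 8, fell in CL6G52 by 1.29 (limma, adjusted p = 0.00985), to 5.13 ± 0.75, against 6.42 ± 0.21 in P19CL6. It was the 1 called, its arrays overlapped, and with the mean of its probe sets its difference was -0.96.

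Markers of other cell types were summed over linear normalized signals on MOE430A. The MOE430A probe sets of 5 of 8 cardiac muscle markers, Myh6, Myl2, Myl7, Tnni3 and Tnnt2, were under the floor on all 30 arrays, with sums of 83 to 127 over the sublines, 80 to 109 in P19CL6 and 102 to 109 in P19. A MOE430B probe set of Tnnt2 was tested, with means of 4.09 in CL6G26, 4.24 in CL6G36, 3.89 in CL6G45 and 4.56 in CL6G52, against 4.56 in P19CL6 and 4.06 in P19, and was called nowhere. Of 8 neural markers 3 were under the floor on all MOE430A arrays, Neurog1, Neurog2 and Sox1, and the neural sums ran from 187 to 233 in CL6G26, 199 to 224 in CL6G36, 178 to 261 in CL6G45 and 200 to 262 in CL6G52, against 170 to 248 in P19CL6 and 151 to 222 in P19. Of 8 primitive endoderm markers 3 were never above the MOE430A floor, Apoa1, Sox7 and Ttr, and the sums were 135 to 165 in CL6G26, 143 to 154 in CL6G36, 118 to 157 in CL6G45 and 140 to 202 in CL6G52, against 152 to 204 in P19CL6 and 160 to 194 in P19. Of 7 fibroblast markers 3 were never above it, Col3a1, Lum and Postn, with sums of 97 to 151 over the sublines, 81 to 154 in P19CL6 and 102 to 260 in P19. All these ranges overlapped between each subline and P19CL6 and between P19CL6 and P19, and their part in the differences of Meis2, Irx3 and Irx5 was not tested.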

How the data were processed

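Total RNA of 6 strains, with 5 replicates each, was read on MOE430A and MOE430B. The deposited values are GCOS signals, a linear intensity per probe set, per the submitters' processing notes; the authors' scaling target and GCOS version are not given in the sources used here. Within each array type, with control probe sets left out, signals were quantile normalized, values under 1 set to 1, and log2 taken. The floor was an array's 40th percentile for MOE430A and 60th for MOE430B, and probe sets above it on at least 5 of 30 arrays were tested. A gene was read from its brightest tested probe set, on MOE430A where it had one there, and from an x_at set only where it had no other. Tests used limma 3.58.1 in R 4.3.3, with a strain-means model over 30 arrays (24 residual degrees of freedom), eBayes with trend, and two-sided Benjamini-Hochberg adjusted p-values within an array type; the script was tested on simulated data. Calls needed an adjusted p under 0.05 and at least a 2-fold change. Bounds set the brighter strain's mean against the floor. Of 35041 probe sets with 1 symbol, 34837 matched a RefSeq gene.

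The members and lists were chosen with earlier results of these data known. The text names the 6 genes, the 3 genes most alike to each, and of each list the genes called in any comparison; for the TALE and Hox list, also those passing by adjusted p alone or called under an alternative. Same-numbered replicates of 2 strains correlated at -0.10 to 0.08 in 10 checks, so no shared shift was seen. The main model therefore does not pair samples, though this check cannot tell whether same-numbered replicates were handled together.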

Additional observations from a re-analysis of the deposited data

Results flagged for a closer look

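In 36 groups of 5 arrays, 2 held an array far from the other 4. Chance gives about 1 in 20, so this count is near that of chance. Both were CL6G36 replicate 4. Irx3 read 2.30 there, against 4.20 to 4.65 in the other CL6G36 arrays. Irx2 read 1.36, against 4.45 to 4.77. Irx5 moved in opposite directions between sublines: all CL6G26 arrays lay above the P19CL6 mean and all arrays of CL6G36, CL6G45 and CL6G52 below it. The difference between CL6G26 and CL6G36 was 2.73 on the log2 scale, between CL6G26 and CL6G45 3.08, and between CL6G26 and CL6G52 2.69. These differences were not tested, since Irx5 was chosen for them, and they rest on signals under the floor in CL6G36, CL6G45 and CL6G52.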

How the results depend on the processing

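For Meis1, Meis2, Irx1, Irx3 and Irx5, 412 of 420 alternative values of the 25 differences moved by less than 1 SD. The other 8 were those with signals raised to the floor. Most of the 420 left out a single array, and leaving out 1 of 5 cannot move a mean by 1 SD. The count of 412 therefore says little about how firm the differences are. The sign turned in 16 of the 420, which belong to 7 differences of Meis1, Irx1, Irx3 and Irx5 between strains that overlap, at most 0.50 in size. Among them Irx3 in P19CL6 against P19 was 0.03 without P19CL6 replicate 1, and Irx1 in CL6G52 was 0.05 without its replicate 2 and 0.10 with signals raised to the floor, against -0.50. The counts of all genes called moved more. Between P19CL6 and P19, limma called 86 genes, 47 with the deposited scaling, 390 without P19 replicates 4 and 5, 3 without P19CL6 replicates 1 and 2, and 0 in a fit on these strains alone, with 2133 at an unadjusted p under 0.05. Leaving out single replicates gave 0 to 198 there, the 0 without P19 replicate 1, 2 or 3, with 1945, 1992 and 1918 at an unadjusted p under 0.05, and the 198 without P19 replicate 4. The deposited scaling gave 22 genes in CL6G26, against 34. With signals raised to the floor the count was 112 in CL6G45, against 182, and 236 for the range among the 4 sublines, against 398. Without single replicates these counts were 29 to 40 in CL6G26, 176 to 217 in CL6G36, 166 to 199 in CL6G45, 45 to 74 in CL6G52 and 366 to 508 among the sublines. Among TALE and Hox partners, 1 gene, Hoxb2, was called in P19CL6 against P19 without P19 replicates 4 and 5, and 1, Irx4, in CL6G36 with no filter, at 1.26 (limma, adjusted p = 0.029). The replicate block gave 85 genes for P19CL6 against P19, 34 in CL6G26, 194 in CL6G36, 181 in CL6G45, 64 in CL6G52 and 399 among the sublines, and changed no call of the 5 tested members. The causes of these shifts were not tested. The MOE430A signals of Meis2 in CL6G36, CL6G45 and CL6G52, of Irx5 there, and of Irx1 and Irx2 in most arrays lie under the floor, where their order has no meaning.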
